A study of Mus musculus with 96 samples.

Results

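The acute-phase proteins described here are serum amyloid A 1 (Saa1), serum amyloid A 2 (Saa2), lipocalin 2 (Lcn2), orosomucoid 1 (Orm1) and haptoglobin (Hp). They were chosen by target name, and all 5 were found among the 7394 gene targets of the table. Their transcript levels were read in liver sections of 16 male mice with the GeoMx assay, in which probes bound to the RNA of a fixed section give up a barcode only where an outlined area of illumination (AOI) is lit, and the barcodes are then sequenced. The 4 groups of 4 mice were HetKO HFD, HetKO LFD, Wt HFD and Wt LFD. HetKO mice, written Het KO in the labels, lacked 1 copy of Gaa, the lysosomal enzyme that breaks down glycogen. Their allele came from LoxP sites placed around exons 4 and 5, which disrupted Gaa without any Cre, so the copy was missing in every tissue from birth. The line was backcrossed to C57BL/6, and the Wt mice, written Control in the labels, were wildtype littermates. High-fat (HFD) or low-fat (LFD) feeding began at about 8 weeks of age and went on for 15 weeks. In each mouse 3 AOIs were drawn in the perivenous zone, around the central vein, on a Cyp2e1 stain, and 3 in the periportal zone, where blood enters the lobule, on an E-cadherin stain. The 3 AOIs of a zone were averaged, so that each mouse gave 1 value per zone and the mouse was the replicate (n = 4).

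Acute-phase proteins are plasma proteins that hepatocytes make in larger or smaller amounts during infection, injury and inflammation. Interleukin 6 acting through Stat3, interleukin 1 acting through NF-kB, and the C/EBP factors switch the positive ones on. Saa1 and Saa2 are the strongly inducible ones in mice and travel on high-density lipoprotein, Lcn2 binds bacterial siderophores and so withholds iron, Orm1 (alpha-1-acid glycoprotein) carries small molecules, and Hp binds free haemoglobin for uptake through the receptor Cd163.

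Saa1 (chr7:46740497-46743181) and Saa2 (chr7:46751833-46754313) are neighbours on mouse chromosome 7 in the RefSeq annotation of GRCm38, Lcn2 lies on chr2:32384637-32387739, Orm1 on chr4:63344556-63348163 and Hp on chr8:109575128-109579172. The promoters of Saa1, Saa2 and Lcn2 are shown because these 3 genes had single mice far above the rest. Each line gives the 250 bases before the annotated start, 5′ to 3′ on the gene's strand, from RefSeq's GRCm38.p6, at chr7:46742981-46743230 (minus strand) for Saa1, chr7:46751583-46751832 (plus strand) for Saa2 and chr2:32387740-32387989 (minus strand) for Lcn2. Capitals mark a match to the C/EBP motif TTGCNNAA.
Saa1: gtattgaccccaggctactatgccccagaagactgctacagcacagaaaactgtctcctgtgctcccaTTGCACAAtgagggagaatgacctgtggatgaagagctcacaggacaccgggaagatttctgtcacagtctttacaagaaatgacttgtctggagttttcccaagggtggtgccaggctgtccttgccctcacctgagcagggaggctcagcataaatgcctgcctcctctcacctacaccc
Saa2: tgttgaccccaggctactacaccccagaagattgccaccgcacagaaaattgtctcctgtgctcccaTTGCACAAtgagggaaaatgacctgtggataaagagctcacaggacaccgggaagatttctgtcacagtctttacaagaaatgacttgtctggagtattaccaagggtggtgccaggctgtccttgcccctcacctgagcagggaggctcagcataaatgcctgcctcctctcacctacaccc
Lcn2: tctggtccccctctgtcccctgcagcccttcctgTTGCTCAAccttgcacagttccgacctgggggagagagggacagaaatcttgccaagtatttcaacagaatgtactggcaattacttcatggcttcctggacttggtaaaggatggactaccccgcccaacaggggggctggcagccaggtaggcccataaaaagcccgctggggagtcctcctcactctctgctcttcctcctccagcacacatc
Both strands were searched for TTGCNNAA, for the STAT3 motif TTCNNNGAA and for the NF-kB motif GGGNNTTTCC, and N stands for any base. The C/EBP motif was found once in each of the 3 promoters, as TTGCACAA at 182 to 175 bases before the start of Saa1, as TTGCACAA at 183 to 176 bases before the start of Saa2 and as TTGCTCAA at 216 to 209 bases before the start of Lcn2. Of the 32851 promoter windows of this length, 9.56% hold that motif, 7.02% hold the STAT3 motif and 1.41% hold the NF-kB motif. No match to the other motifs was in these 3 windows, which says only that these letters are not there. The Saa1 and Saa2 windows carried the same base at 238 of 251 aligned positions (94.8%), against 53.9% for Saa1 with Lcn2 and 53.01% for Saa2 with Lcn2. RefSeq lists each of Saa1 and Saa2 as a synonym of the other. Their transcript and probe sequences were not compared here, so how far the probes separate them is uncertain.

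Normalized counts are reads scaled so that the third quartile was 60.2 in every AOI, and their depth ran from 60874 to 1772443 deduplicated reads per AOI (median 536938). A target counts as detected in an AOI when it lies above the limit of quantitation (LOQ), which is set from the negative probe that has no target in the mouse. All HFD sections were on one slide and all LFD sections on another, so diet and slide cannot be told apart, whereas both genotypes were on both slides. Gaa was lower in HetKO than in Wt mice on the LFD, at 37.1 to 55.3 against 57.6 to 70.1 normalized counts in the perivenous zone and 41.1 to 59.03 against 67.9 to 80.4 in the periportal zone, without overlap. The genotypes did not overlap for 1.37% of all tested targets perivenously and 2.03% periportally. In limma 0% of all tested targets passed an adjusted p under 0.05 in either zone. On the HFD the Gaa levels of the genotypes overlapped in both zones (36.5 to 47.9 in HetKO and 39.8 to 54.8 in Wt perivenously, and 30.2 to 56.3 in HetKO and 39.05 to 55.6 in Wt periportally), with Gaa above the LOQ in 1 to 3 of 12 AOIs of each group and zone. The mean share of targets above the LOQ was 40.4% perivenously and 39.2% periportally in HetKO HFD, 63.6% and 62.2% in HetKO LFD, 18.997% and 23.03% in Wt HFD and 55.4% and 50.3% in Wt LFD mice. Mouse HetKO LFD 1 had 5 AOI libraries on a different plate from the others, with a sequencing saturation of 66.6% perivenously and 75.3% periportally, and mouse Wt HFD 1 had 29.6% and 45.2% of targets above the LOQ, above the other Wt HFD mice.

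Hp was above the LOQ in 96 of 96 AOIs, Orm1 in 95, Saa1 in 91, Saa2 in 61 and Lcn2 in 27. The members differed in how much they varied between mice. Saa1 ran from 41.1 to 5771 normalized counts over the 32 mouse-zone samples, a ratio of 140.3 between the highest and the lowest, and Saa2 ran over a ratio of 137. The same ratio was 21.2 for Hp, 15.1 for Orm1 and 11.6 for Lcn2. Between mice of a group the SD on the log2 scale was 1.77 for Saa1, 1.70 for Saa2, 0.81 for Lcn2, 0.79 for Hp and 0.69 for Orm1. Between the 3 AOIs of 1 mouse and zone the SD was 0.60 for Saa1, 0.72 for Saa2, 0.38 for Lcn2, 0.15 for Hp and 0.21 for Orm1, so that every member varied more between mice than within a mouse.

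Single mice held the highest levels. HetKO LFD 3 was first of 16 for all 5 members, with a mean of both zones of 5370.4 normalized counts for Saa1 (22.8 times the median mouse), 1742 for Saa2 (24.3 times), 184 for Lcn2 (5.38 times), 881 for Orm1 (3.46 times) and 2303 for Hp (3.31 times). HetKO LFD 1 was next for Saa1 (1938, 8.24 times), Saa2 (613, 8.55 times) and Orm1 (652, 2.56 times), but lay at only 1.21 times the median for Lcn2. The third-highest mouse for Saa1 (883), Saa2 (359) and Lcn2 (64.9) was Wt HFD 3, the next-highest for Lcn2 was Wt HFD 1 (124, 3.61 times), and the next-highest for Hp was Wt LFD 3 (1808). The high Saa1 of HetKO LFD 3 was present in every AOI of that mouse, at 5350.4, 4567 and 4991 normalized counts perivenously and 5647, 5824 and 5843 periportally. AOIs were less alike at low levels, and the widest spread was in the perivenous zone of Wt LFD 4, where Saa1 read 50.6, 33.2 and 264 and the highest AOI of Saa2 was 19.6 times the lowest.

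**Figure D1:**
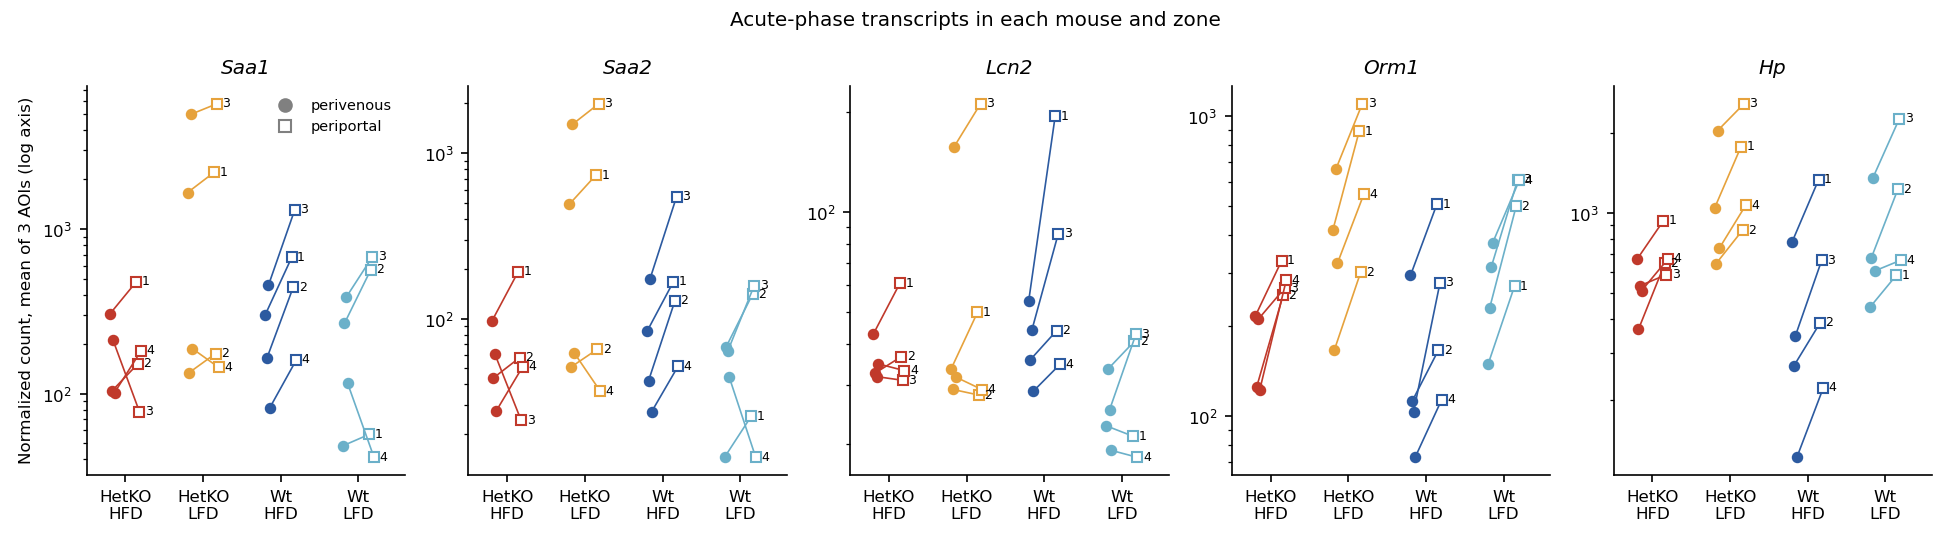
Normalized counts of each member on a log axis, 1 panel per gene, by group from left to right (HetKO HFD, HetKO LFD, Wt HFD, Wt LFD), with filled circles for the perivenous zone, open squares for the periportal zone, a line joining the zones of a mouse and the mouse number beside it. HetKO LFD 3 is highest in every panel, HetKO LFD 1 is next for Saa1 and Saa2, and the other HetKO LFD mice lie among the Wt LFD mice for Saa1 and Saa2.

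The first comparison asked whether loss of 1 Gaa copy changed the acute-phase transcripts on the LFD. Saa1 read 1667, 134, 4969 and 188 normalized counts in perivenous HetKO LFD mice 1 to 4, against 48.4, 268, 384 and 116 in Wt LFD mice 1 to 4. Periportally it read 2209, 176, 5771 and 145 in HetKO LFD mice, against 56.8, 568, 679.9 and 41.1 in Wt LFD mice. HetKO mice 1 and 3 were above every Wt mouse and HetKO mice 2 and 4 lay inside the Wt range, in both zones. Saa2 divided the mice in the same way, at 491, 50.9, 1494 and 62.3 perivenously and 735, 65.3, 1990.4 and 36.3 periportally in HetKO LFD mice, against 14.6, 67.6, 63.7 and 44.1 perivenously and 25.6, 141, 158 and 14.5 periportally in Wt LFD mice. Group means were therefore 2075 ± 2647 in HetKO LFD and 337 ± 335 in Wt LFD for periportal Saa1 (SD, n = 4 each), with an SD above the mean in the HetKO mice.

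Lcn2, the siderophore binder, had 33.6, 29.1, 157 and 31.7 perivenously and 49.7, 28.01, 212 and 29.1 periportally in HetKO LFD mice, against 22.6, 33.5, 25.3 and 19.1 perivenously and 21.1, 40.7, 42.7 and 18.2 periportally in Wt LFD mice. Only HetKO LFD 3 stood clearly above the Wt mice, and HetKO LFD 1 lay just over the highest of them. Orm1 had 889, 302, 1097 and 548 periportally in HetKO LFD mice and 271, 499, 611 and 609 in Wt LFD mice, and Hp had 1770.3, 862, 2569 and 1068 in HetKO LFD mice and 584, 1226, 2258 and 666 in Wt LFD mice. For these 2 abundant proteins the genotypes overlapped widely, also perivenously.

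On the log2 scale of the value plus 1, HetKO minus Wt was 2.16 ± 1.15 for Saa1, 2.18 ± 1.09 for Saa2, 0.89 ± 0.51 for Lcn2, 0.42 ± 0.35 for Orm1 and 0.49 ± 0.40 for Hp periportally (estimate ± SE). Perivenously it was 2.19 ± 0.98, 2.499 ± 0.90, 0.93 ± 0.42, 0.48 ± 0.36 and 0.50 ± 0.35 in the same order. A call needed an adjusted p under 0.05 in limma over all 6805 tested targets and a log2 difference of at least 0.8 in size. None of the 5 was called in either zone, where 0% of all tested targets were called, and the adjusted p was 0.999 or higher for every member. At an unadjusted p under 0.05 limma held 222 targets (3.26%) periportally, none of them a member, and 95 (1.40%) perivenously, among them Saa1 (unadjusted p = 0.0418), Saa2 (0.0145) and Lcn2 (0.0433). DESeq2 called 1 target periportally and 0 perivenously, edgeR called 0 in both, and neither called a member. Exact two-sided permutation p-values, whose smallest possible value with 4 against 4 mice is 0.0286, were 0.314 and 0.229 for Saa1, 0.229 and 0.171 for Saa2 and 0.286 and 0.0857 for Lcn2. Without HetKO LFD 3 the Saa1 difference was 1.17 periportally and 1.21 perivenously, that of Saa2 1.17 and 1.54, and that of Lcn2 0.24 and 0.35. Without HetKO LFD 1 these were 1.63 and 1.73, 1.65 and 2.07, and 0.93 and 1.08.

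On the HFD the order of the genotypes for Saa1, Saa2 and Lcn2 was the other way round. Periportal Saa1 read 479, 152, 77.8 and 182 in HetKO HFD mice 1 to 4, against 673, 444, 1311 and 161 in Wt HFD mice 1 to 4. Periportal Saa2 read 191, 58.1, 24.2 and 51.3 in HetKO HFD mice and 167, 128, 544 and 51.6 in Wt HFD mice, and Lcn2 read 60.8, 36.6, 31.03 and 33.2 in HetKO HFD mice and 194, 43.8, 85.8 and 34.6 in Wt HFD mice. The groups overlapped for each, since HetKO HFD 1 was above Wt HFD 4 for Saa1, above Wt HFD 1 for Saa2 and above Wt HFD 2 for Lcn2. For Hp the HetKO mean was the higher one, with 669.8, 366, 534 and 512 for perivenous Hp in HetKO HFD mice and 781, 267, 346 and 121 in Wt HFD mice. There the mouse Wt HFD 1 was above every HetKO mouse and the other 3 Wt mice were below every HetKO mouse.

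HetKO minus Wt on the HFD was -1.51 ± 0.54 for Saa1 (limma adjusted p = 0.230, exact permutation p = 0.114), -1.40 ± 0.59 for Saa2 (adjusted p = 0.298, exact p = 0.257) and -0.84 ± 0.40 for Lcn2 (adjusted p = 0.350, exact p = 0.2) periportally. Perivenously the 3 differences were -0.49 ± 0.45, -0.39 ± 0.47 and -0.23 ± 0.19. There Lcn2 was above the LOQ in 1 of 12 AOIs in each genotype. The negative probe itself was lower in HetKO HFD than in Wt HFD mice, by -0.30 periportally and -0.21 perivenously. Its part in the Lcn2 differences was not tested. Orm1 differed by 0.31 ± 0.33 and 0.36 ± 0.35 and Hp by 0.41 ± 0.39 and 0.74 ± 0.41, periportally and perivenously. Limma called 0 of 5 members and 0% of all targets in each zone, while 992 targets (14.6%) periportally and 1019 of 6805 perivenously had an unadjusted p under 0.05. DESeq2 called 5 targets in each zone and edgeR 0, none of them a member. Without Wt HFD 1, Hp was higher in HetKO and was called in both zones (log2 0.86, adjusted p = 0.0282 periportally, and 1.18, adjusted p = 0.00317 perivenously), while Lcn2 was at -0.36 periportally. Saa1 periportally ran from -2.05 to -1.05 and Saa2 from -1.93 to -0.80 as each mouse was left out, the smallest differences being those without Wt HFD 3. The 9 hepatocyte markers measured were all higher in HetKO HFD than in Wt HFD mice on average (median log2 difference 0.86 periportally and 0.75 perivenously, against -0.01 and 0.03 for all tested targets), none of them past the test, and their part in these differences was not tested.

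Whether the effect of diet differed between the genotypes was tested as an interaction over all 16 mice. The effect of the HFD in HetKO minus its effect in Wt was -3.66 ± 1.45 for Saa1 (unadjusted p = 0.02001, limma adjusted p = 0.463), -3.58 ± 1.43 for Saa2 (adjusted p = 0.463) and -1.74 ± 0.74 for Lcn2 (adjusted p = 0.463) periportally. It was -2.68 ± 1.26, -2.89 ± 1.18 and -1.16 ± 0.52 perivenously, each with an adjusted p of 0.775. For Orm1 it was -0.11 ± 0.55 and -0.11 ± 0.56 and for Hp -0.08 ± 0.63 and 0.23 ± 0.61. No member and no other target was called (0%), and 732 targets (10.8%) periportally and 395 (5.80%) perivenously had an unadjusted p under 0.05, Saa1, Saa2 and Lcn2 among them in both zones. DESeq2 and edgeR called 0 as well. Without HetKO LFD 3 the periportal interaction was -2.68 for Saa1, -2.57 for Saa2 and -1.08 for Lcn2.

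**Figure D2:**
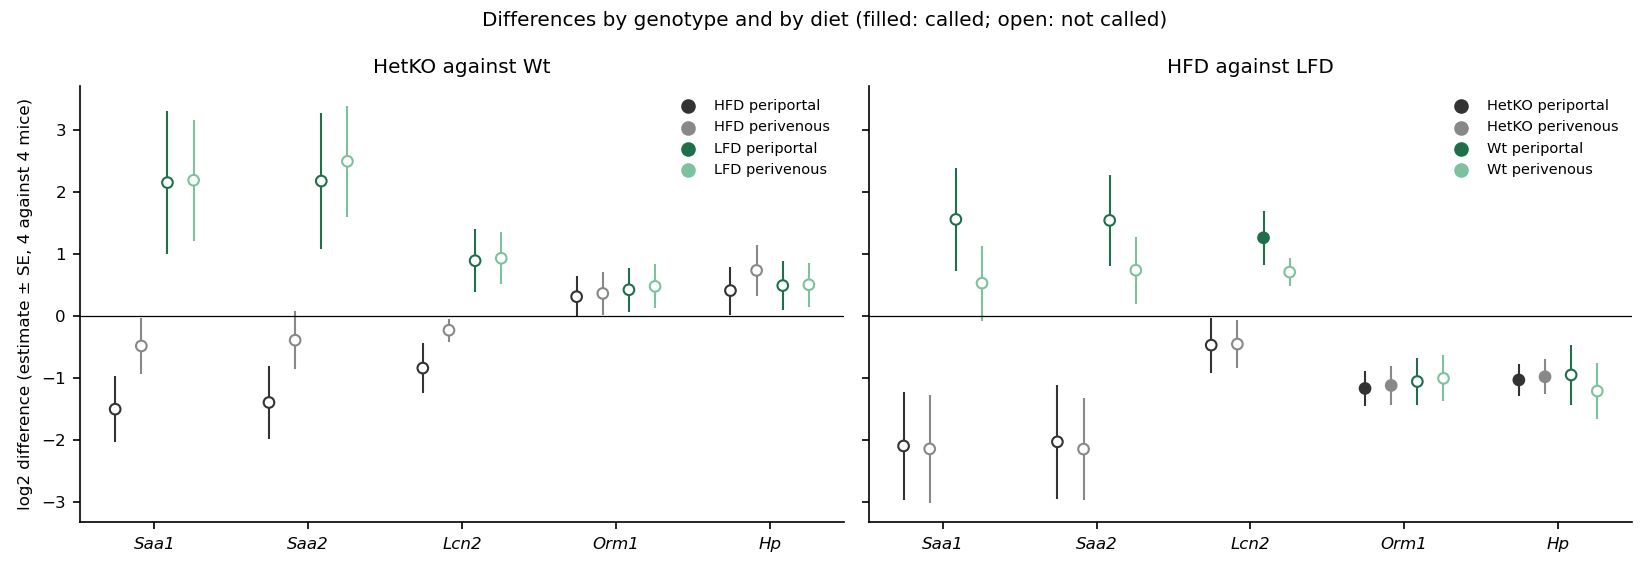
Log2 differences of the 5 members (estimate ± SE, vertical axis in log2 units of the value plus 1) for HetKO against Wt on each diet (left) and for HFD against LFD in each genotype (right), by zone, with filled symbols for differences that were called. Orm1 and Hp lie below 0 in every diet comparison, between -0.95 and -1.21, while Saa1 and Saa2 lie between -2.15 and -2.03 in HetKO and between 0.53 and 1.56 in Wt.

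Orm1 and Hp had lower means on the HFD than on the LFD in each genotype. Perivenous Orm1 read 215, 125, 209.9 and 122 in HetKO HFD and 416, 166, 665 and 323 in HetKO LFD mice, and 294, 112, 103 and 72.8 in Wt HFD mice and 149, 229, 313 and 378 in Wt LFD mice. Periportal Orm1 read 328, 253, 267 and 283 in HetKO HFD mice, against 889, 302, 1097 and 548 in HetKO LFD mice, and 507, 166, 278 and 113 in Wt HFD mice, against 271, 499, 611 and 609 in Wt LFD mice. In HetKO the diets overlapped only through HetKO LFD 2, the lowest LFD mouse, which was below HetKO HFD 1 in both zones and below HetKO HFD 3 perivenously. In Wt, mouse Wt HFD 1 had the highest Orm1 of its group in both zones and Wt LFD 1 the lowest of its own.

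Perivenous Hp read 669.8, 366, 534 and 512 in HetKO HFD and 1043, 647, 2037 and 737 in HetKO LFD mice, and in Wt the values were those given above for the HFD and 443, 681, 1357 and 606 for the LFD. Periportal Hp read 934, 647, 587 and 673 in HetKO HFD mice, against 1770.3, 862, 2569 and 1068 in HetKO LFD mice, and 1333, 388, 665 and 221 in Wt HFD mice, against 584, 1226, 2258 and 666 in Wt LFD mice. Again HetKO HFD 1 was above HetKO LFD 2, and Wt HFD 1 was above 3 of the 4 Wt LFD mice in both zones, while the other 3 Wt HFD mice were below all Wt LFD mice perivenously.

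In HetKO mice, HFD minus LFD was -1.17 ± 0.28 for Orm1 (limma adjusted p = 0.0241, exact p = 0.0571) and -1.03 ± 0.26 for Hp (adjusted p = 0.0277, exact p = 0.0571) periportally. Perivenously it was -1.12 ± 0.32 for Orm1 (adjusted p = 0.0245, exact p = 0.0857) and -0.98 ± 0.28 for Hp (adjusted p = 0.0252, exact p = 0.0571). Both were called in each zone, where 1.19% of all targets periportally and 1.68% perivenously were called. The group means were 283 ± 32.9 in HetKO HFD against 709 ± 353 in HetKO LFD mice for periportal Orm1, and 710.4 ± 153 against 1567 ± 773 for periportal Hp (SD, n = 4 each). Leaving out 1 mouse ended these calls in 4 or 5 of 8 cases. Periportally both were lost without HetKO LFD 1 (adjusted p = 0.0862 for Orm1 and 0.0922 for Hp), HetKO LFD 3 (0.0642 and 0.0692), HetKO HFD 2 (0.0639 and 0.0717), HetKO HFD 3 (0.0633 and 0.0816) or HetKO HFD 4 (0.0634 and 0.0709). Perivenously both were lost without HetKO LFD 1 (0.0605 and 0.0545), HetKO LFD 3 (0.0619 for Orm1, and for Hp a difference of -0.64 at 0.0446), HetKO HFD 2 (0.0793 and 0.0843) or HetKO HFD 4 (0.07003 and 0.0526), and Hp alone without HetKO HFD 3 (0.0593). They were also lost when all 4 groups shared a fit (Orm1 0.181 and 0.125, Hp 0.241 and 0.186) and when the negative probe was subtracted (Orm1 0.103 and 0.0795, Hp 0.114 and 0.0872).

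In Wt mice, HFD minus LFD was -1.06 ± 0.38 for Orm1 (limma adjusted p = 0.0515) and -0.95 ± 0.48 for Hp (adjusted p = 0.149) periportally, and -1.01 ± 0.37 (adjusted p = 0.0642) and -1.21 ± 0.45 (adjusted p = 0.0658) perivenously. None of these 4 passed, in comparisons that called 14.2% of all targets periportally and 13.2% perivenously. Without Wt HFD 1 all 4 were called, at -1.45 (adjusted p = 0.00123) for Orm1 and -1.40 (0.00904) for Hp periportally and at -1.42 (0.000738) and -1.66 (0.00138) perivenously. Without Wt LFD 1, Orm1 was called in both zones (adjusted p = 0.0182 and 0.0275) and Hp perivenously (0.0407). The sizes in Wt and HetKO lay close together, and the interactions of Orm1 and Hp given above were small beside their SE.

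With both genotypes in one fit, which sets 8 HFD against 8 LFD mice, Orm1 fell by 1.12 ± 0.27 periportally (limma adjusted p = 0.00363, exact permutation p = 0.00612) and fell by 1.07 ± 0.28 perivenously (adjusted p = 0.00458, exact p = 0.00898) on the HFD. Hp fell by 0.99 ± 0.31 periportally (adjusted p = 0.0164, exact p = 0.0233) and fell by 1.10 ± 0.30 perivenously (adjusted p = 0.00646, exact p = 0.00857). Diets were permuted within each genotype, for which the smallest possible exact p is 0.000408. These were 2 of 5 members called in each zone, beside 4.69% of all targets periportally and 5.69% perivenously, and all 4 calls held as each of the 16 mice was left out, with adjusted p-values of 0.0410 or lower. Under scaling by nuclei, where limma used one common spread for all targets, the perivenous differences were -1.18 for Orm1 and -1.22 for Hp but no longer called (adjusted p = 0.221 and 0.200). Saa1 (-0.27 and -0.81), Saa2 (-0.25 and -0.71) and Lcn2 (0.40 and 0.13) were not called, and the periportal values of Saa1 and Saa2 turned to 0.32 and 0.36 without HetKO LFD 3.

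The summed level of 9 hepatocyte markers was lower on the HFD as well. Perivenously it was 16312 to 26542 normalized counts in HetKO HFD against 30220.3 to 43154 in HetKO LFD mice, and 4289 to 25041 in Wt HFD against 23493 to 43939 in Wt LFD mice. Periportally it was 36724 to 52976 in HetKO HFD against 56260.0 to 73870 in HetKO LFD mice, and 9562 to 39684 in Wt HFD against 46815 to 89591 in Wt LFD mice. All 9 markers were lower on the HFD in both zones over both genotypes (median log2 difference -1.06 and -1.23, against 0.07 for all tested targets in each zone). Wt HFD 1, the mouse with the highest Orm1 and Hp of its group, also had the highest marker sum of its group, and Wt HFD 4 had the lowest of each. In such averaged areas fewer cells of a type and less RNA per cell cannot be told apart, and the part of the hepatocyte share in the fall of Orm1 and Hp was not tested. Over both genotypes the negative probe was higher on the HFD, by 0.58 periportally and 0.52 perivenously. Over the 2908 targets above the LOQ in at least 48 AOIs, the median diet difference was -0.29 periportally in Wt mice. The part of background and scaling in the falls of Orm1, Hp and the markers was not tested.

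The diet differences of Saa1 and Saa2 had opposite signs in the 2 genotypes, and none passed the test in limma. In HetKO, HFD minus LFD was -2.10 ± 0.88 for Saa1 and -2.03 ± 0.92 for Saa2 periportally (limma adjusted p = 0.136 and 0.166) and -2.15 ± 0.87 and -2.15 ± 0.83 perivenously (adjusted p = 0.0856 and 0.0732). In Wt it was 1.56 ± 0.83 and 1.54 ± 0.74 periportally (adjusted p = 0.167 and 0.127) and 0.53 ± 0.60 and 0.74 ± 0.54 perivenously (adjusted p = 0.534 and 0.328). Without HetKO LFD 3 the periportal HetKO differences were -1.12 and -1.02. On recovered reads both were called in HetKO by edgeR (log2 -3.25, adjusted p = 0.0201 for Saa1 and -3.17, adjusted p = 0.0229 for Saa2 periportally, and -3.31, 0.00965 and -3.24, 0.00884 perivenously), and DESeq2 called Saa1 in both zones (adjusted p = 0.0397 and 0.0168) and Saa2 perivenously (0.0166). Without HetKO LFD 2, limma too called Saa1 in both zones (adjusted p = 0.0420 and 0.0156) and Saa2 perivenously (0.0158), and without HetKO LFD 4 it called both perivenously (0.0289 and 0.0220).

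Lcn2 was the member called in Wt mice, in a periportal comparison that called 14.2% of all targets and passed 15.4% as higher. Lcn2 was 1.26 ± 0.44 higher on the HFD than on the LFD periportally (limma adjusted p = 0.0437, exact permutation p = 0.143), with means of 89.5 ± 72.96 in Wt HFD mice and 30.7 ± 12.8 in Wt LFD mice (SD, n = 4 each). Perivenously the difference was 0.71 ± 0.23 (adjusted p = 0.0411, exact p = 0.0571), below the size needed for a call, where 10.2% of all targets passed the adjusted p as higher, with 53.99, 35.8, 43.95 and 28.8 in Wt HFD mice and the LFD values given above. The groups overlapped through Wt HFD 4, which lay below 2 Wt LFD mice periportally and below 1 perivenously. The periportal call was lost on leaving out any 1 mouse other than Wt HFD 4, with adjusted p-values of 0.0812, 0.0549, 0.0607 and 0.133 without Wt LFD 1, 2, 3 and 4 and of 0.0544, 0.0598 and 0.118 without Wt HFD 1, 2 and 3, and the difference was 0.78 without Wt HFD 1. The perivenous difference became a call without Wt LFD 2 (0.86, adjusted p = 0.0332) or Wt HFD 4 (0.85, adjusted p = 0.0452). Neutrophils also make Lcn2, and of 16 markers of these cells only Ly6g and Retnlg were measured, at a summed 65.9 to 130 normalized counts in Wt HFD against 58.5 to 94.98 in Wt LFD mice perivenously and 85.1 to 118 against 44.9 to 84.8 periportally. Of these 2 markers 1 was called higher periportally and 0 perivenously, beside 15.4% and 10.2% of all targets past the adjusted p as higher. Neither marker was above the LOQ in as many as 48 AOIs. The negative probe was also higher in Wt HFD than in Wt LFD mice, by 0.82 periportally and 0.65 perivenously. The part of these markers in the Lcn2 difference was not tested. In HetKO, Lcn2 did not pass (-0.47 ± 0.44 and -0.45 ± 0.39), and its sign turned to 0.18 and 0.13 without HetKO LFD 3.

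Much of the Lcn2 reading was close to the negative probe. The negative probe itself was higher on the HFD slide, at 21.2 to 36.6 normalized counts in Wt HFD against 12.1 to 21.998 in Wt LFD mice periportally (a mean log2 difference of 0.82, and 0.65 perivenously), and by 0.33 and 0.39 in HetKO. Lcn2 over the negative probe was 1.85, 1.25, 1.21 and 1.28 in perivenous HetKO HFD mice 1 to 4, 1.74, 1.28, 9.62 and 1.65 in HetKO LFD mice, 2.63, 1.12, 1.41 and 0.741 in Wt HFD mice and 0.913, 1.54, 1.57 and 1.32 in Wt LFD mice, and only HetKO LFD 3 was above 3. Periportally the ratio was 2.93, 1.67, 1.21 and 1.28 in HetKO HFD mice, 2.75, 1.31, 11.6 and 1.75 in HetKO LFD mice, 9.18, 1.38, 2.93 and 0.950 in Wt HFD mice and 0.958, 2.28, 3.55 and 1.32 in Wt LFD mice. Periportally HetKO LFD 3 and Wt HFD 1 stood apart, Wt LFD 3 came next, and Wt HFD 4 and Wt LFD 1 were below 1. With the negative probe subtracted, the periportal Lcn2 difference in Wt was 1.25, beside a median of -0.98 over all targets, and no longer called (adjusted p = 0.453). The call was lost as well with TMM scaling (adjusted p = 0.0684), a pseudocount of 10 (0.0575), all 4 groups in one fit (0.0590) and DESeq2 (0.07004). For Saa1 the periportal mean ratio to the negative probe was 10.02, 113.7, 23.8 and 23.5 in HetKO HFD, HetKO LFD, Wt HFD and Wt LFD mice.

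**Figure D3:**
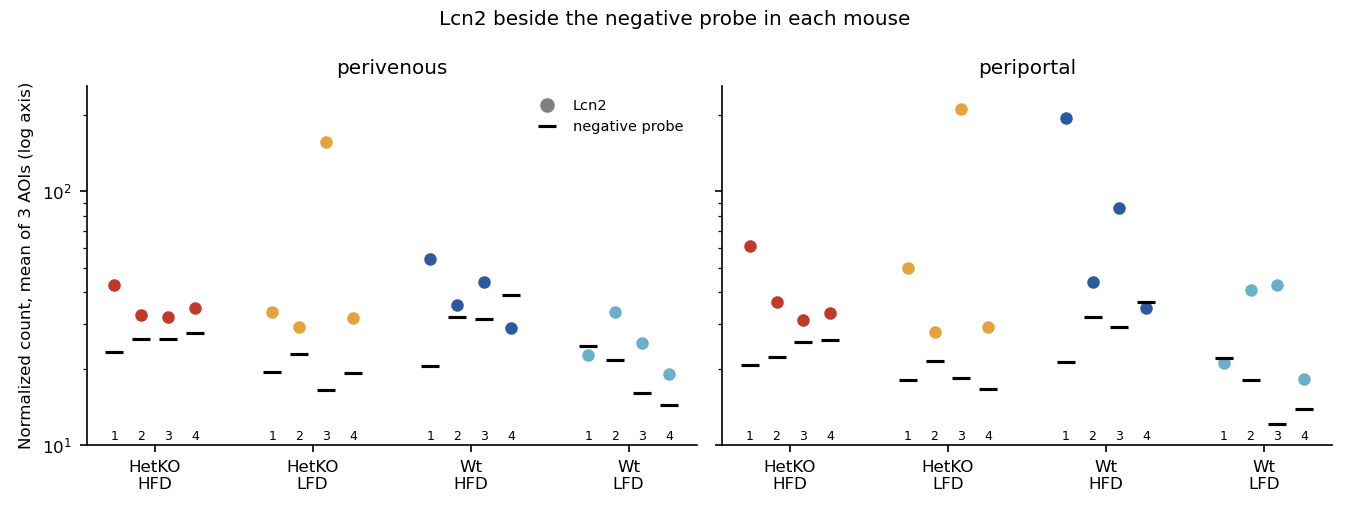
Lcn2 (dots) and the negative probe (dashes) in normalized counts on a log axis for each mouse, by group and zone. The dot lies far above its dash in HetKO LFD 3 in both zones (11.6 and 9.62 times) and in Wt HFD 1 periportally (9.18 times), and at 0.741 to 3.55 times its dash in every other mouse and zone.

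All 5 members were lower perivenously than periportally over the 16 mice, and Orm1 and Hp were so in every mouse. The perivenous level of Orm1 divided by its periportal level was 0.653, 0.495, 0.788 and 0.433 in HetKO HFD mice 1 to 4, 0.468, 0.550, 0.606 and 0.589 in HetKO LFD mice, 0.579, 0.674, 0.372 and 0.644 in Wt HFD mice and 0.550, 0.460, 0.513 and 0.621 in Wt LFD mice. The ratio of Hp was 0.717, 0.566, 0.909 and 0.761 in HetKO HFD, 0.589, 0.7499, 0.793 and 0.690 in HetKO LFD mice, 0.586, 0.688, 0.520 and 0.549 in Wt HFD mice and 0.758, 0.555, 0.601 and 0.910 in Wt LFD mice. The medians were 0.564 for Orm1 and 0.689 for Hp, and the 4 groups covered much the same range for each.

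The ratio of Saa1 was 0.638, 0.680, 2.72 and 0.559 in HetKO HFD, 0.755, 0.766, 0.861 and 1.30 in HetKO LFD mice, 0.449, 0.370, 0.347 and 0.514 in Wt HFD mice and 0.852, 0.472, 0.565 and 2.82 in Wt LFD mice. Saa1 was thus lower perivenously in 13 of 16 mice and higher in HetKO HFD 3, HetKO LFD 4 and Wt LFD 4, none of them a mouse with a high level, and Saa2 was above 1 in the same 3 mice (2.53, 1.72 and 3.04). For Saa2 the ratio ran from 0.321 to 3.04 with a median of 0.555, and for Lcn2 from 0.279 in Wt HFD 1 to 1.09 in HetKO LFD 4 with a median of 0.828 and 10 of 16 mice below 1.

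**Figure D4:**
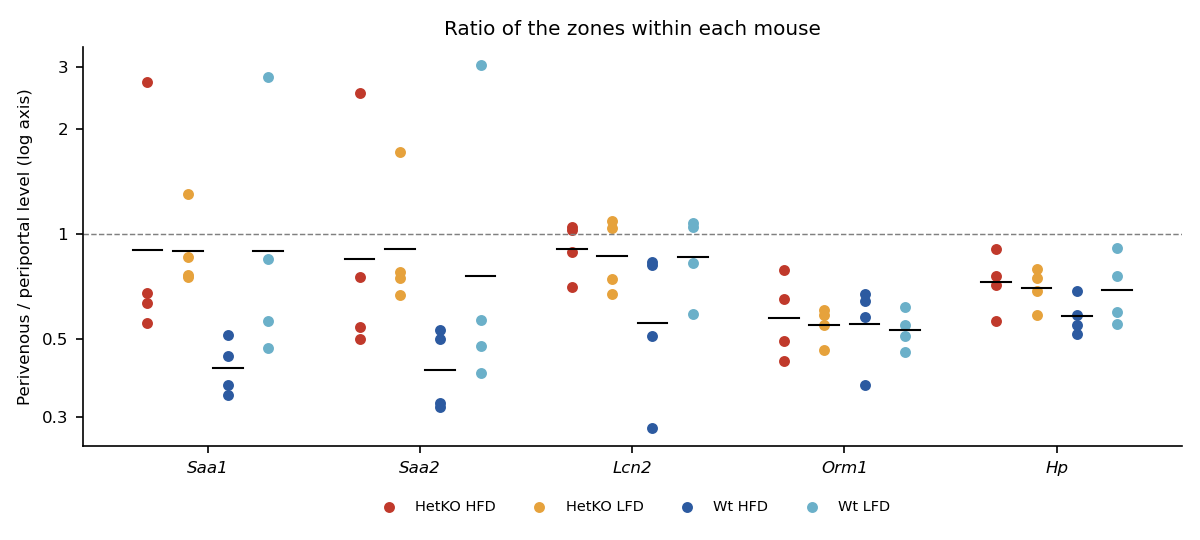
Perivenous level divided by periportal level in each mouse, on a log axis, for each member and group, with a black line at the geometric mean of the 4 mice. Orm1 (0.372 to 0.788) and Hp (0.520 to 0.910) lie below 1 in all 16 mice, and Saa1 and Saa2 lie below 1 in every Wt HFD mouse and on both sides of 1 in each of the other groups.

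Perivenous minus periportal, with the mouse as a block, was -0.86 ± 0.07 for Orm1 (limma adjusted p = 7.20e-12), -0.66 ± 0.15 for Saa2 (adjusted p = 0.00173), -0.57 ± 0.07 for Hp (adjusted p = 3.20e-08), -0.51 ± 0.15 for Saa1 (adjusted p = 0.0128) and -0.38 ± 0.10 for Lcn2 (adjusted p = 0.00515) over 16 mice. All 5 passed the adjusted p as lower, beside 8.16% of all targets, and Orm1 alone reached the size for a call, beside 1.69% of all targets. Being lower perivenously in all 16 mice, as Orm1 and Hp were, held for 2.20% of all targets. Exact two-sided p-values from paired sign flips were 3.05e-05 for both Orm1 and Hp, which is the smallest that 16 mice can give, and 0.000854 for Lcn2, 0.00833 for Saa2 and 0.0244 for Saa1. Left out 1 at a time, no mouse moved any of these past an adjusted p of 0.0352. Under scaling by nuclei the Orm1 difference was -0.48 (adjusted p = 0.0771), and the zone differences of Saa1, Saa2, Lcn2 and Hp in HetKO HFD mice turned positive.

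Within groups of 4 mice, Orm1 was called in all 4 groups, at -0.81 in HetKO HFD (limma adjusted p = 0.000411), -0.86 in HetKO LFD mice (7.38e-05), -0.86 in Wt HFD (0.00556) and -0.92 in Wt LFD mice (0.000316), beside 1.76%, 2.00%, 1.16% and 2.51% of all targets. Its size fell under the limit of 0.8 without HetKO HFD 2 (-0.74) or HetKO HFD 4 (-0.68), without HetKO LFD 1 (-0.78), and without Wt HFD 3 (-0.67), at adjusted p-values of 0.0282 or lower. In Wt HFD mice Saa1 (-1.29 ± 0.14, adjusted p = 7.18e-05) and Saa2 (-1.39 ± 0.16, adjusted p = 0.000135) were called too. Hp passed the adjusted p in each group with differences of -0.79 to -0.46, where 2.29% (HetKO HFD), 3.34% (HetKO LFD), 1.19% (Wt HFD) and 2.84% (Wt LFD) of all targets passed it as lower. Leaving out 1 mouse, Hp still passed in 4 of 4 cases in Wt HFD, where it was called without mouse 2 (-0.87, adjusted p = 0.00732), and in 3 of 4 in HetKO LFD (0.0863 without mouse 1), but in 1 of 4 in HetKO HFD (0.115, 0.200 and 0.122 without mice 1, 2 and 4) and in 1 of 4 in Wt LFD (0.0778, 0.307 and 0.145 without mice 1, 2 and 3). Saa2 was called in HetKO HFD without mouse 3 (-0.87, adjusted p = 0.00162) and in Wt LFD without mouse 4 (-1.05, adjusted p = 0.00168), the mice in which its ratio was above 1. With 4 mice the exact paired test cannot go below 0.125. Perivenous minus periportal for Saa1 was lower on the HFD than on the LFD, by a difference of -0.54 (unadjusted p = 0.0499, adjusted p = 0.6005), and for Saa2 it was 0.66 higher in HetKO than in Wt mice (unadjusted p = 0.0189, adjusted p = 0.995). No member was called in either of these tests of the zone difference, which called 0.411% and 0% of all targets.

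The zones themselves were as labelled, with 10 of 10 periportal hepatocyte markers lower (median log2 difference -1.82) and 9 of 9 perivenous markers higher (2.84) in the perivenous zone. The 9 general hepatocyte markers were lower perivenously as well (median -0.73, against 0.01 for all tested targets), and their part in the zone differences of the members was not tested. The 2 neutrophil markers measured, Ly6g and Retnlg, did not pass the test between zones, and the other 14 of that list were not analysed here.

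Other acute-phase proteins were taken from a list of 36 further positive ones, of which 30 were tested. On the HFD over both genotypes 20 of the 30 were lower and 0 higher periportally (median log2 difference -0.69) and 23 lower and 0 higher perivenously (median -0.78), at an adjusted p under 0.05, beside 17.5% and 20.3% of all targets lower. Hamp, the iron hormone hepcidin, fell by 2.26 periportally (adjusted p = 0.000857) and fell by 2.15 perivenously (adjusted p = 0.00222), and the fibrinogen chain Fgb fell by 1.13 and fell by 1.23. Hpx (haemopexin), which binds haem as Hp binds haemoglobin, was at -0.78 (adjusted p = 0.0318) and -0.90 (adjusted p = 0.0177), Serpina3n at -0.69 and -0.74, and Cp (ceruloplasmin) at -0.61 in each zone, all past the test. Orm2, the near copy of Orm1, was at 0.10 and 0.16 (adjusted p = 0.796 and 0.533). Of 13 negative acute-phase proteins, which inflammation lowers, 12 were lower periportally and 13 perivenously (median -0.89 and -0.99), among them Alb (-0.98 and -1.20) and Ttr (-0.77 and -0.94). In both lists, the positive and the negative, most members were lower on the HFD. The negative probe was higher on the HFD slide, by 0.58 periportally and 0.52 perivenously, and its part in these falls was not tested.

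Of the cytokines and receptors of the acute-phase response, 8 of 17 were tested and 3 periportally and 4 perivenously were lower on the HFD, with the interleukin 6 receptor Il6ra at -0.11 and -0.12 (neither past the test). Of all targets 17.5% periportally and 20.3% perivenously were lower and 22.8% and 25.1% were higher at that adjusted p, against which these list counts are read. Of 13 tested signal transducers and feedback genes, 6 periportally and 5 perivenously were lower and 1 in each zone was higher. Stat3 was at -0.49 (adjusted p = 0.0219) and -0.41 (adjusted p = 0.0278) and Cebpb at -0.37 and -0.35. Of 9 tested ligands and receptors of the members, 5 periportally and 6 perivenously were lower and 2 were higher, the last being near the share of all targets. Cd163, the macrophage receptor for Hp bound to haemoglobin, was higher by 0.58 (adjusted p = 0.00686) and 0.62 (adjusted p = 0.00424). Over both genotypes the negative probe itself was higher on the HFD by 0.58 periportally and 0.52 perivenously. Its part in the Cd163 difference was not tested. Between genotypes none of these lists had a member past an adjusted p of 0.05 on either diet (0% of all targets). Between zones 23 of the 30 further positive acute-phase proteins were lower and 1 higher perivenously (median of the list -0.36), beside 8.16% of all targets lower and 7.95% higher. Hpx was at -1.74, Hamp at -1.56 and Fgb at -0.97. Orm2, which was read near the LOQ in perivenous Wt LFD mice, was at 0.01 (limma adjusted p = 0.962).

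The readings of Orm2 had another pattern than those of Orm1, its near copy, from which the assay may not fully separate it. Orm2 was also read near the LOQ, which averaged 48.1, 42.8, 34.7 and 28.7 in perivenous Wt LFD mice 1 to 4. The part of this low level in the difference from Orm1 was not tested. Orm2 read 82.5, 47.6, 122 and 49.9 normalized counts in perivenous HetKO LFD mice 1 to 4, against 41.7, 39.3, 41.2 and 30.7 in Wt LFD mice, so that mice HetKO LFD 1 and 3 were again the highest and the groups did not overlap, as was the case for 1.37% of all targets. The difference was 0.89 perivenously (unadjusted p = 0.00355) and 1.03 periportally (unadjusted p = 0.0199), and neither passed the adjusted test. In Wt mice Orm2 was higher on the HFD than on the LFD without overlap in either zone (0.90, limma adjusted p = 0.00898 periportally, and 0.57, adjusted p = 0.0470 perivenously), while Orm1 was at -1.06 and -1.01 there. Many targets did the same in Wt mice, since the diets did not overlap for 21.2% of all targets periportally and 19.4% perivenously, and 15.4% and 10.2% passed the adjusted p as higher. The negative probe was also higher on the HFD in Wt mice, by 0.82 periportally and 0.65 perivenously. Its part in the Orm2 difference was not tested.

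The members varied together from mouse to mouse. Deviations from the group mean, averaged over both zones, were correlated over the 16 mice for all 10 pairs, with permutation p-values for r and for rho and the same adjusted over the 10 pairs. Saa1 and Saa2 correlated at r = 0.98 (permutation p = 0.0001, adjusted p = 0.0006) and rho = 0.95 (adjusted p = 0.000667). Orm1 and Hp correlated at r = 0.85 (permutation p = 0.00184, adjusted p = 0.00307) and rho = 0.78 (adjusted p = 0.00723), Lcn2 and Hp at r = 0.82 (permutation p = 0.00012, adjusted p = 0.0006) and rho = 0.87 (adjusted p = 0.000667), and Saa1 and Lcn2 at r = 0.82 (permutation p = 0.00068, adjusted p = 0.0018) and rho = 0.81 (adjusted p = 0.0022). Without the 2 mice farthest from the median the 4 values of r were 0.97, 0.80, 0.79 and 0.72. Within the HFD slide they were 0.96, 0.97, 0.96 and 0.74, and within the LFD slide 0.99, 0.75, 0.79 and 0.85 (8 mice each). The weakest pairs were Saa2 with Orm1 (r = 0.61, rho = 0.59, permutation p = 0.0546 for r before and after adjustment) and Saa1 with Orm1 (r = 0.65, rho = 0.61, permutation p = 0.0290, adjusted p = 0.0322), and the last fell to r = 0.47 without HetKO LFD 2 and HetKO LFD 3. The other 4 pairs had r from 0.72 to 0.82. The genes of a mouse share its libraries and their depth. These r values were not set against those of all other pairs of targets, so they do not mark the members out. Orm1 was closer to Lrp1 (r = 0.96) and Serping1 (r = 0.94), which are not members, than to any member. Hepatocyte marker sums also differed between mice of a group, as from 9562 to 39684 in periportal Wt HFD mice, and their part was not tested.

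**Figure D5:**
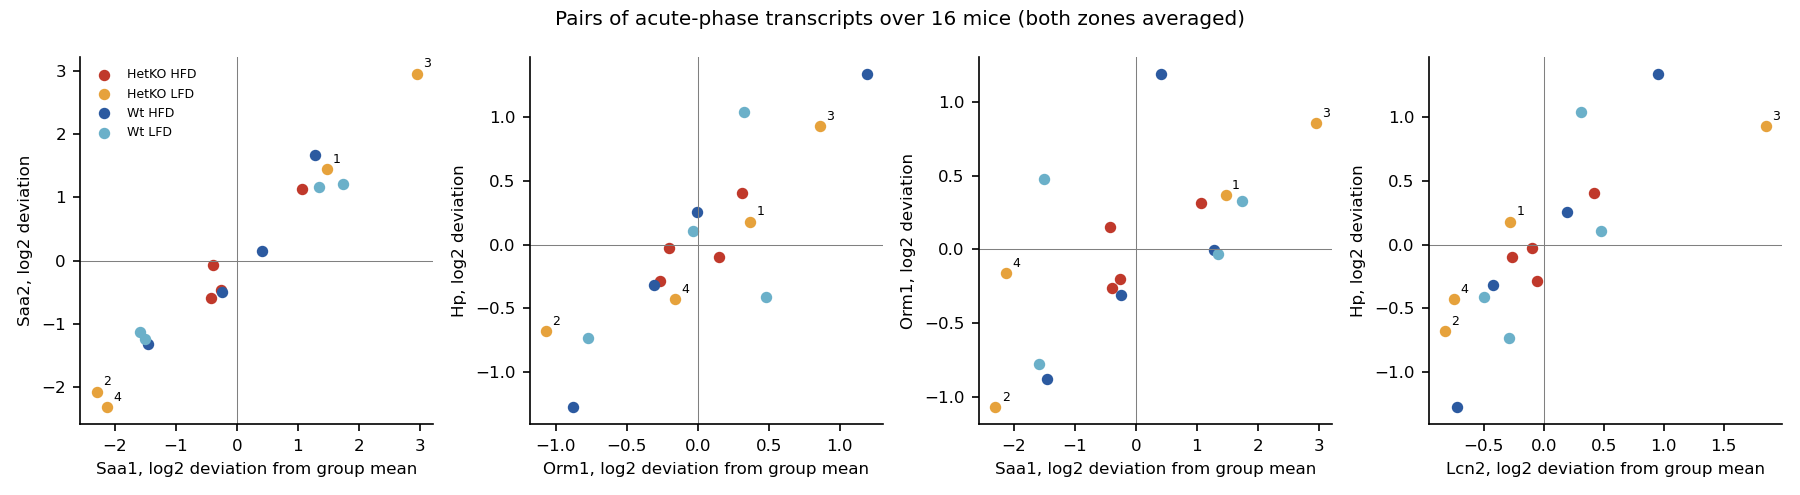
Deviations from the group mean on the log2 scale, averaged over both zones, for 16 mice and 4 pairs of members, with the HetKO LFD mice numbered. Saa1 and Saa2 lie along 1 line (r = 0.98), Orm1 and Hp (0.85) and Lcn2 and Hp (0.82) less closely, and Saa1 and Orm1 (0.65) least of the 4.

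The 5 targets most like each member by the same measure are given as a description. For Saa1 they were Saa2 (r = 0.98), Trp53inp2 (0.91), Saa4 (0.91), Serpina10 (0.91) and Lrg1 (0.90), and for Saa2 they were Saa1, Orm2 (0.90), Trp53inp2 (0.88), Saa4 (0.87) and Mt2 (0.86). For Lcn2 they were Saa4 (0.91), Steap4 (0.87), Serpina3n (0.87), Osbpl9 (0.86) and Orm2 (0.86). Orm1 was most like Lrp1 (0.96), C4b (0.96), Hspb8 (0.95), Grcc10 (0.94) and Serping1 (0.94), and Hp was most like Hpx (0.96), Itih4 (0.96), Pdia3 (0.96), C3 (0.96) and Trf (0.93). Saa1 and Saa2 shared 2 of their 5, Saa2 and Lcn2 shared 2, Saa1 and Lcn2 shared 1, and Orm1 and Hp shared none with each other or with the rest. With the group means left in, rho with Lcn2 was only 0.22 for Serpina3n and 0.094 for Osbpl9. For Trp53inp2 it was 0.42 with Saa1 and 0.32 with Saa2. The other targets named here had a rho of 0.55 to 0.97.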

How the data were processed

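The data covered 96 AOIs of 16 mice, 3 per mouse and zone. The authors processed the reads with the GeoMx NGS Pipeline 2.3.3.10 on mm10 (GRCm38) and deposited 1 table of normalized signal, in which the upper quartile was 60.2 in every AOI, although the study's methods describe scaling by nuclei. Read counts per AOI, the sequencing saturation as a percent and the nuclei per AOI were deposited with it. From the signal and the reads per AOI, 99.95% of values gave whole reads within 0.01, and these recovered counts served the count models only. There were 13 per-sample columns that were not used.

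The members and gene lists were chosen with earlier results of these data known. The 3 AOIs of a mouse and zone were averaged, log2(value + 1) was tested with limma 3.58.1 (R 4.3.3) on the 6805 of 7394 gene targets above the LOQ in at least 10 AOIs, and p-values were adjusted by Benjamini-Hochberg over all of them. A call needed an adjusted p under 0.05 and a log2 difference of at least 0.8, the size the study's methods used. Groups were compared pairwise, over both genotypes with genotype as a term, as an interaction, and between zones with the mouse as a block. Alternatives were scaling by TMM or nuclei, subtraction of the negative probe, a pseudocount of 10, no filter, a filter of 48 AOIs (2908 targets), the median of the AOIs, leaving out the 1 AOI under 100000 reads, all 4 groups in one fit, the replicate number as a block, edgeR 4.0.16 and DESeq2 1.42.0 on recovered reads, and leaving out each mouse. Counting error is smallest for the deeper AOIs. The procedure was also run on simulated data that held no separate background signal and no slide difference, and its outcome is not reported here. All 5 members were named in every comparison, with a fixed set of companions (Orm2, Serpina3n, Hpx, Cp, Fgb, Hamp, Alb, Ttr, Stat3, Il6ra, Cebpb, Cd163 and others where tested) and up to 3 genes per list that passed with the lowest adjusted p. Promoter and location tables were RefSeq's, and promoters of Orm1 and Hp were not analysed here.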

Additional observations from a re-analysis of the deposited data

Results flagged for a closer look

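Dixon's test for a lone high or low sample was applied to the 40 combinations of member, group and zone with 4 mice each. It singled out Lcn2 in HetKO LFD 3, at 212 normalized counts periportally (the gap to the next mouse was 0.882 of the range) and at 157 perivenously (0.965 of the range), past the 95% critical value in both zones. Chance singles out about 1 in 20 such groups, and the 2 flags among 40 groups lay at that rate. Both of these are the same mouse and gene. The test was run on normalized counts and not on the log2 scale used elsewhere. On that scale the periportal values were 5.66, 4.84, 7.73 and 4.88 in HetKO LFD mice 1 to 4, where the gap is a smaller part of the range. HetKO LFD 3 was also the highest of 16 mice for Saa1, Saa2, Orm1 and Hp.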

How the results depend on the processing

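Of 1991 results for single members over all alternatives, 1819 kept their direction and their side of the call, 65 lost and 54 gained a call, by the adjusted p or by the size, and 53 changed sign, 33 of these on leaving out 1 mouse. Most main results were not calls and so could not lose one, and the 1819 therefore do not measure how stable the calls were. The cause of the changes was not tested. Lcn2 was above the LOQ in 27 of 96 AOIs and Saa2 in 61, which limits both, and diet and slide cannot be told apart for any member.

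The number of members called moved as follows. Scaling by nuclei, which moved the median of all targets by -0.76 to 0.79, called 5 members periportally and 1 perivenously for HetKO against Wt on the LFD (0 and 0 otherwise), 4 periportally and 0 perivenously for HFD against LFD in HetKO (2 and 2 otherwise), 4 periportally in Wt (1 otherwise), 0 perivenously over both genotypes (2 otherwise), 2 for the periportal interaction (0 otherwise), and 0 between zones in HetKO HFD, HetKO LFD, Wt HFD, Wt LFD and all 16 mice. In those fits limma used one common spread for all targets. Relative to that median, 95 of 95 member results kept their direction. Subtracting the negative probe called 0 and 0 members for the diet in HetKO, 0 periportally in Wt, 0 between zones in HetKO HFD, Wt HFD and Wt LFD, and 3 between zones over all mice (1 otherwise). One fit for all groups called 0 and 0 for the diet in HetKO and 1 perivenously in Wt (0 otherwise). For the periportal diet effect in Wt, one fit for all groups and scaling by TMM each lost Lcn2 (adjusted p = 0.0590 and 0.0684) and gained Orm1 (0.0347 and 0.0492). EdgeR called 4 and 4 for the diet in HetKO and 0 between zones in HetKO HFD. DESeq2 called 4 perivenously for the diet in HetKO, 0 periportally in Wt and 0 between zones in HetKO HFD. For the periportal diet effect in Wt a pseudocount of 10 called 0, the stricter filter, under which Lcn2 was not tested, 0, no filter 2 and the median of the AOIs 2. Between zones in HetKO HFD a pseudocount of 10 and the median of the AOIs each called 0.

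The replicate number as a block called 13 members over 12 comparisons, against 9 without it. It called 2 for HetKO against Wt on the HFD periportally (Saa1 and Lcn2, 0 otherwise) and 4 for the perivenous diet effect in HetKO (2 otherwise), and exchanged Lcn2 for Saa2 in the periportal diet effect in Wt. Same-numbered mice correlated at -0.59 to 0.48 over 32 pairs and no comparison had every pair over 0.1, so the numbers give no pairing.

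Changes of sign were these. Lcn2 for HetKO against Wt on the HFD perivenously was 0.10 under nuclei scaling and 0.00493 with the negative probe subtracted. Lcn2 over both genotypes was -0.088 periportally and -0.036 perivenously under nuclei scaling, and perivenously -0.64 with the negative probe subtracted, -0.16 in DESeq2 and -0.30 in edgeR. Between zones under nuclei scaling HetKO HFD mice gave 0.44 for Saa1, 0.32 for Saa2, 0.46 for Lcn2 and 0.26 for Hp, and Wt LFD mice 0.095 for Saa1 and 0.13 for Lcn2. The interaction of Orm1 was 0.026 periportally and 0.14 perivenously with the negative probe subtracted, and that of Hp perivenously -0.093 in DESeq2 and -0.087 in edgeR. The effect of the HFD on the zone difference was 0.052 for Lcn2 and 0.25 for Hp under nuclei scaling and -0.11 for Orm1 with the negative probe subtracted. That subtraction moved the median of all targets by -0.98 to 0.64, and relative to that median 4 of the 5 results whose sign it changed kept their direction, and this last one did not (-0.087).

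Leaving out each mouse in turn, the members called ranged from 0 to 1 for HetKO against Wt on the HFD in each zone, 0 to 3 periportally and 0 to 4 perivenously for the diet in HetKO, 0 to 2 in each zone in Wt, and between zones 0 to 1 in HetKO LFD mice, 0 to 2 in HetKO HFD, 2 to 4 in Wt HFD and 1 to 2 in Wt LFD. Signs changed within these ranges. For HetKO against Wt on the HFD, Orm1 ran from -0.022 to 0.70 and Hp from -0.00484 to 0.86 periportally and Saa2 from -0.75 to 0.13 perivenously. For the diet, Lcn2 in HetKO ran from -0.78 to 0.18 periportally and from -0.69 to 0.13 perivenously, and over both genotypes Saa1 ran from -0.75 to 0.32 and Saa2 from -0.68 to 0.36 periportally. Saa1 between zones in Wt LFD ran from -0.71 to 0.00310. The interaction ran from -0.47 to 0.28 for Orm1 and -0.50 to 0.37 for Hp periportally, and from -0.47 to 0.29 and -0.21 to 0.68 perivenously. The zone difference of Orm1 ran from -0.020 to 0.14 for diet and -0.037 to 0.12 for genotype.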
